A study of Equus caballus with 18 samples.

Results

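CASQ2 (ENSECAG00000021854) and ATP2A2 (ENSECAG00000007671) were the 2 calcium handling genes in the slow twitch list of the study's heat map, out of 25239 genes counted in 18 skeletal muscles of 1 male Jeju horse, a pony breed of Jeju Island. The deposited counts carry Ensembl identifiers without names, and each of the 2 genes was found as the single identifier whose counts equalled those printed in the heat map in all 18 muscles. The libraries were made from total RNA depleted of ribosomal RNA, with 1 library per muscle, and the labels name no treatment. For comparisons the muscles were grouped by the body region that their names give. The proximal forelimb was represented by 4 muscles (triceps brachii caput longum, biceps brachii, infraspinatus and supraspinatus), and the girdle and neck by 4 (rhomboideus, omohyoideus, trapezius and pectoralis major, a library that the study's own list names pectoralis ascendens). The distal forelimb held 2 (extensor digitorum communis and extensor carpi radialis), the distal hindlimb 2 (extensor digitorum longus and extensor digitorum lateralis), and the proximal hindlimb 5 (semitendinosus, gluteus superficialis and the vertebral, middle and caudal parts of the biceps femoris, which are 3 pieces of 1 muscle). The longissimus thoracis and lumborum was the only muscle of the back and entered no comparison. All 18 libraries share 1 animal, so every p-value below measures the spread between muscles of that horse and not between horses.

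Skeletal muscle relaxes when calcium is pumped from the cytosol back into the sarcoplasmic reticulum, the store from which it was released to start contraction. ATP2A2 encodes SERCA2, the pump of slow twitch and cardiac fibres, and ATP2A1 encodes SERCA1, the pump of fast twitch fibres. Inside the store calcium is held by calsequestrin, which is encoded by CASQ1 in fast twitch fibres and in part in slow ones, and by CASQ2 in cardiac and slow twitch fibres. ATP2A2 also gives rise to a pump isoform found in most cell types, and counts per gene do not separate the isoforms. ATP2A1 (ENSECAG00000012593) and CASQ1 (ENSECAG00000019807) are used here as the fast counterparts of the 2 slow genes.

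Between 31395013 reads (omohyoideus) and 50508515 reads (pectoralis major) were counted on genes per library. Levels are CPM (counts scaled to a common library size) after adjustment by the trimmed mean of M values (TMM) of edgeR, whose factors lay between 0.809 and 1.44. Intervals are 95% Poisson intervals for a level and 95% Wilson intervals for a share, and they cover counting error only. Over the 18 libraries, Pearson's r of the log2 CPM of CASQ2 and ATP2A2 was -0.01 and -0.04 with the log2 factor and -0.05 and -0.26 with the log2 total. The slow myosin heavy chain MYH7 and the fast troponin TNNT3, which mark skeletal muscle, were detected in every library, MYH7 from 881 CPM (extensor carpi radialis) to 26284 CPM (trapezius) and TNNT3 from 619 CPM (trapezius) to 5233 CPM (extensor carpi radialis). Markers of blood vessels, connective tissue, fat and blood cells had no named identifier and were not analysed here. In RNA from whole muscle, fewer slow fibres and less of a transcript per fibre cannot be told apart.

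CASQ2 was a rare transcript in most muscles and stood far higher in 1 of them. Its level was 97.7 CPM (94.5 to 100.9) in the extensor digitorum lateralis, 3.31-fold above the second muscle, and 37.8% of the CPM summed over the 18 muscles came from that library. The median over the 18 muscles was 6.45 CPM, and the lowest level was 1.92 CPM (1.57 to 2.33) in the gluteus superficialis. The highest level was thus 50.8-fold the lowest (41.8 to 62.3), and without the extensor digitorum lateralis the span was 15.3-fold. With libraries scaled by their totals alone the span was 40.9-fold, and the lowest muscle was then the triceps brachii.

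Behind the extensor digitorum lateralis, 4 muscles formed an upper set for CASQ2. These were the rhomboideus with 29.5 CPM, the omohyoideus with 24.9 CPM, and the extensor digitorum communis and the trapezius with 20.5 CPM each. Their levels lay above that of the next muscle, the caudal biceps femoris with 8.59 CPM. From there the levels fell gradually. The longissimus held 8.17 CPM, the extensor digitorum longus 7.61, the supraspinatus 6.70, the infraspinatus 6.2, the pectoralis major 5.55 and the biceps brachii 5.26 CPM. The extensor carpi radialis had 4.08 CPM, the semitendinosus 3.49, the middle biceps femoris 3.06, the triceps brachii 2.42 and the vertebral biceps femoris 2.36 CPM. The intervals of all neighbours in this lower run overlapped. In the whole order they overlapped in 13 of the 17 adjacent pairs, and the 4 separated pairs were all among the 6 highest muscles. Such overlap is a description and does not test the difference within a pair. The rhomboideus and the omohyoideus, a separated pair, turned in order with scaling by library totals (31.3 and 35.8 CPM).

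ATP2A2, the pump gene, ranked the muscles differently. It was highest in the trapezius with 3192 CPM and second in the rhomboideus with 2302 CPM. The infraspinatus and the omohyoideus followed with 1454 and 1436 CPM, whose intervals overlapped. Their order turned with scaling by library totals, to 1176 and 2068 CPM. The extensor digitorum lateralis, highest for CASQ2, was only 13th for ATP2A2 with 715 CPM, and 15th when libraries were scaled by their totals.

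The middle of the ATP2A2 order ran closely. The longissimus held 1212 CPM, the caudal and the middle biceps femoris 1119 and 1098, the pectoralis major 1023, the extensor digitorum communis 960, the supraspinatus 898 and the biceps brachii 855 CPM. At the lower end were the extensor digitorum longus with 715 CPM, the triceps brachii with 633, the semitendinosus with 614, the gluteus superficialis with 504, the extensor carpi radialis with 401 and the vertebral biceps femoris with 307 CPM. The span was 10.4-fold (10.2 to 10.6) around a median of 929 CPM, and 7.49-fold without the trapezius. At these counts only 3 of 17 adjacent pairs had overlapping intervals. The extensor carpi radialis replaced the vertebral biceps femoris as the lowest muscle under scaling by library totals, with a span of 9.19-fold.

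**Figure D1:**
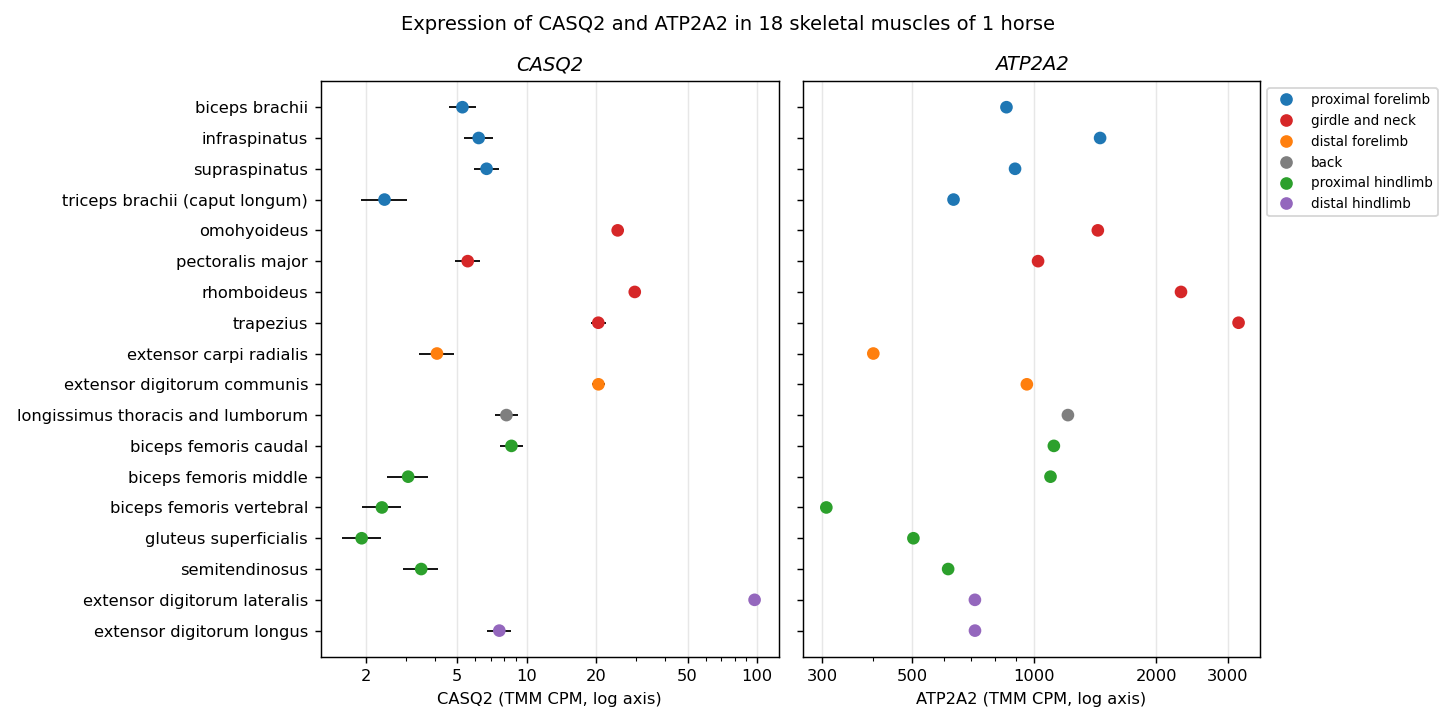
Expression of CASQ2 (left) and ATP2A2 (right) in TMM CPM on log axes, with 1 point per muscle, coloured by body region; lines are 95% Poisson intervals and are hidden by the points at high counts. CASQ2 peaks in the extensor digitorum lateralis at 97.7 CPM, while ATP2A2 peaks in the trapezius at 3192 CPM.

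CASQ2 also varied more between muscles than most genes. The SD of its log2 CPM was 1.49, larger than that of 99.5% of the 14770 genes that passed the filter on low counts, and larger than that of 99.8% of the 2205 genes within 0.5 log2 units of its mean level, whose median SD was 0.31. The SD of ATP2A2 was 0.83, larger than that of 92.4% of the genes tested and of 80.6% of the 36 genes of like level. The fast counterparts differed from each other in the same measure. CASQ1 lay between 311 CPM (extensor digitorum communis) and 685 CPM (infraspinatus), a 2.20-fold span with an SD larger than that of 37.5% of genes. By contrast, ATP2A1 lay between 596 CPM (rhomboideus) and 5539 CPM (infraspinatus), a 9.29-fold span. Under scaling by library totals CASQ1 was lowest in the extensor digitorum lateralis (304 CPM) and highest in the vertebral biceps femoris (776 CPM). The lowest muscle for ATP2A1 was then the trapezius (621 CPM).

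The levels of the 2 slow genes were positively related over most muscles, with the extensor digitorum lateralis as the main departure. Over the 18 muscles, Pearson's r between their log2 CPM was 0.54 and Spearman's rho 0.63. Without the extensor digitorum lateralis r was 0.77, and without it and the rhomboideus, the muscles farthest from the CASQ2 median, r was 0.73. Without the trapezius and the vertebral biceps femoris, the muscles farthest from the ATP2A2 median, r was 0.45. These correlations describe muscles of 1 horse that share the scaling of their libraries. The relation between the genes within each library shows the same departure without any scaling. Per 1000 ATP2A2 reads there were 137 CASQ2 reads in the extensor digitorum lateralis, 21.4 in the extensor digitorum communis and 17.3 in the omohyoideus, down to 2.79 in the middle biceps femoris. The ratio thus spanned 49.0-fold, and the trapezius, highest for ATP2A2, ranked 11th with 6.41.

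**Figure D2:**
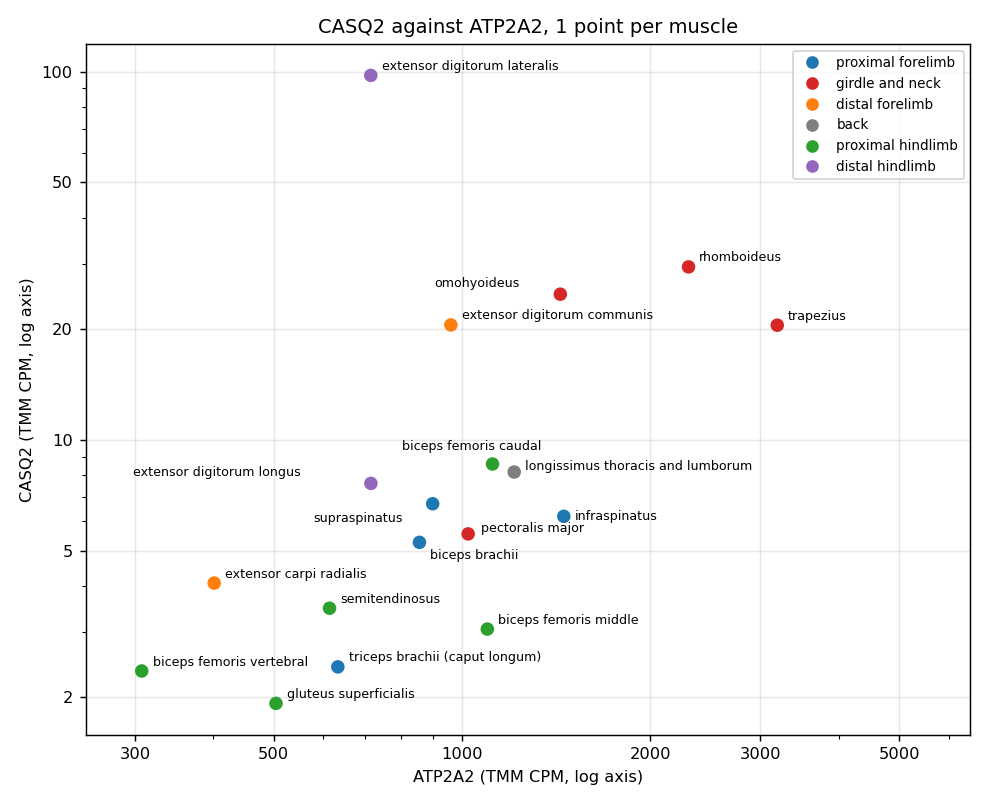
CASQ2 against ATP2A2 in TMM CPM on log axes, with 1 point per muscle, coloured by body region. Most muscles lie along a rising band, and the extensor digitorum lateralis lies above it with 97.7 CPM of CASQ2 at 715 CPM of ATP2A2.

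Set against their fast counterparts within each library, both slow genes separated the muscles more sharply. Since transcripts of different lengths give different numbers of reads, such shares compare muscles with one another and not the amounts of the 2 transcripts, and reads from stretches where the paired genes are nearly alike may have been assigned to either. CASQ2 gave 21.1% (20.5 to 21.7) of the reads of the calsequestrin pair in the extensor digitorum lateralis, 7.16% in the rhomboideus, 6.18% in the extensor digitorum communis, 5.76% in the omohyoideus and 4.65% in the trapezius. In the 13 other muscles the share lay between 0.351% (0.290 to 0.424) in the gluteus superficialis and 2.04% in the caudal biceps femoris. The same 5 muscles led in the level and in the share of CASQ2, which are not separate measures. Both hold the same CASQ2 counts, and CASQ1 spanned only 2.20-fold. The log2 ratio of CASQ2 to CASQ1 reads ran from -8.15 to -1.90, a 75.9-fold span.

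For the pump pair the same 5 muscles led in another order. ATP2A2 gave 83.2% (83.0 to 83.4) of the pump reads in the trapezius and 79.4% in the rhomboideus. The omohyoideus followed with 47.1%, the extensor digitorum communis with 42.8% and the extensor digitorum lateralis with 39.5%. The 13 others lay between 8.50% (8.37 to 8.64) in the vertebral biceps femoris and 33.0% in the pectoralis major. The extensor digitorum lateralis thus moved from 13th by ATP2A2 level to 5th by share, with an ATP2A1 level of 1095 CPM that ranked 16th. The infraspinatus moved the other way, from 3rd by level to 11th by share, with the highest ATP2A1 level. The log2 ratio spanned 53.2-fold, from -3.43 to 2.30, and its Pearson's r with the log2 ratio of the calsequestrin pair was 0.70 (Spearman's rho 0.80, n = 18 muscles).

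**Figure D3:**
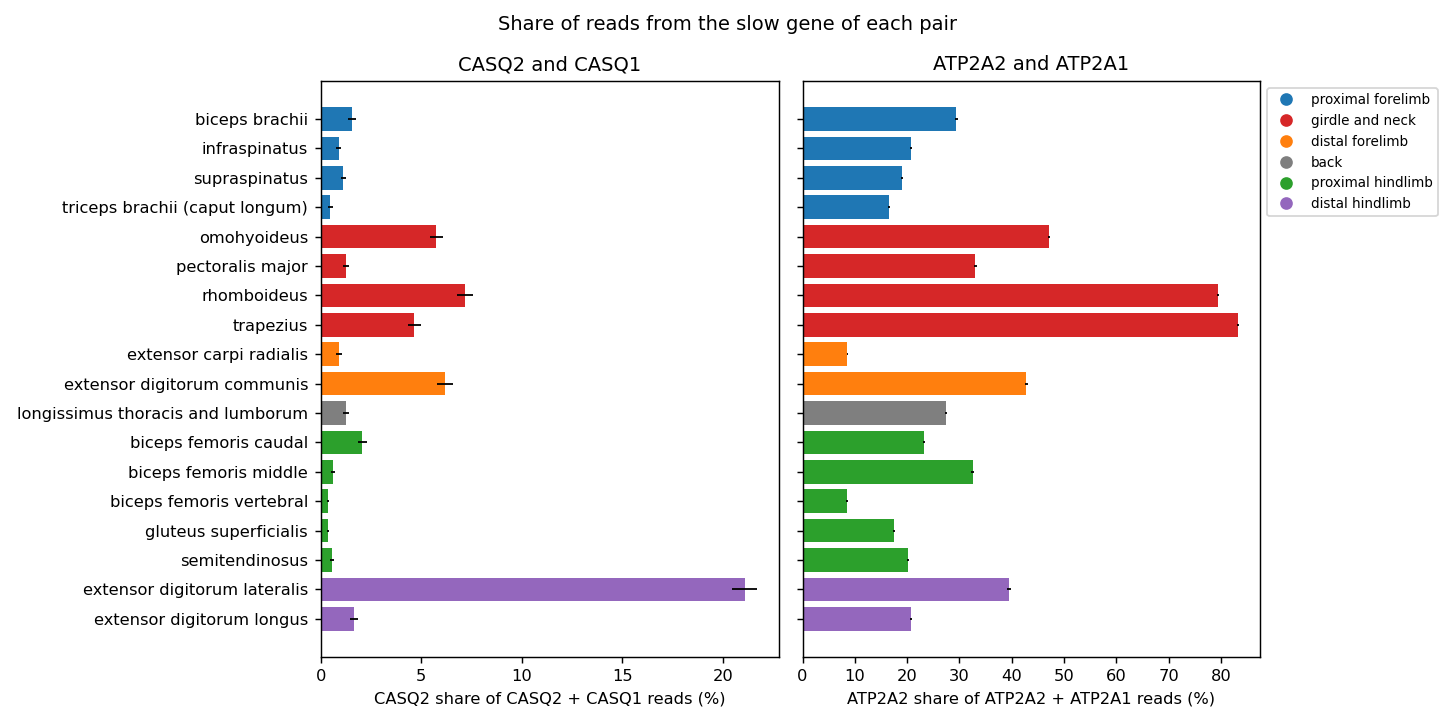
Share of reads from the slow gene within the pair CASQ2 and CASQ1 (left) and the pair ATP2A2 and ATP2A1 (right), in percent, with 1 bar per muscle coloured by body region and 95% Wilson intervals as lines; the axes differ in scale. The extensor digitorum lateralis leads on the left with 21.1%, and the trapezius (83.2%) and the rhomboideus (79.4%) lead on the right.

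Neighbouring muscles, and even parts of 1 muscle, differed in the slow genes. In the biceps femoris CASQ2 was 2.36, 3.06 and 8.59 CPM in the vertebral, middle and caudal parts, and ATP2A2 was 307, 1098 and 1119 CPM. The caudal to vertebral ratios were 3.65 for CASQ2 and 3.64 for ATP2A2, but the step came at different places. ATP2A2 was 3.57-fold higher in the middle than in the vertebral part, where the CASQ2 intervals of these parts overlapped (2.48 to 3.74 and 1.92 to 2.86 CPM) and their order turned with scaling by library totals (2.64 and 2.75 CPM). From the middle to the caudal part CASQ2 was 2.81-fold higher and ATP2A2 1.02-fold. Each part is 1 library, so these ratios have no replicate check. The study placed the caudal part in its subgroup A3, where it found mostly immune genes higher than in subgroup A1. Whether the parts differed in their mix of cells was not tested.

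The digital extensors of the hindlimb differed in CASQ2 but hardly in ATP2A2. The extensor digitorum lateralis had 12.8-fold the CASQ2 level of the extensor digitorum longus and 1.0-fold its ATP2A2 level. In the forelimb the extensor digitorum communis exceeded the extensor carpi radialis in both genes, 5.02-fold for CASQ2 and 2.39-fold for ATP2A2, with lower ATP2A1 (0.300-fold). With 1 library per muscle these ratios have no replicate check.

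The first comparison between regions asked whether the distal limb extensors differed from the proximal limb muscles, with fore and hind limb weighted equally. CASQ2 was 4.08, 7.61, 20.5 and 97.7 CPM in the 4 distal muscles and 1.92 to 8.59 CPM, with a median of 3.49, in the 9 proximal ones. The extensor carpi radialis and the extensor digitorum longus lay within the proximal range and the other two above it. CASQ2 was upregulated in the distal extensors with a log2FC of 2.51 (SE 0.54, edgeR quasi-likelihood test, adjusted p = 0.00596), where a gene counted as called at an adjusted p under 0.05 with a log2FC beyond 0.58 in either direction. Calls in this comparison were common, at 10.9% of the 14770 genes tested in either direction (1606 genes) and 5.75% in this one, although the number fell to 550 without the extensor digitorum lateralis and to 818 with scaling by library totals. The call was lost without the extensor digitorum lateralis (log2FC 1.12, adjusted p = 0.217) and without the extensor digitorum communis (log2FC 1.71, adjusted p = 0.0725).

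ATP2A2 was not called in the same comparison. Its levels were 401, 715, 715 and 960 CPM in the distal extensors, all within the proximal range of 307 to 1454 CPM, with a log2FC of -0.26 (SE 0.37, adjusted p = 0.662 by edgeR). When single muscles were left out it ran from -0.65 (without the extensor digitorum communis) to -0.01 (without the extensor carpi radialis). The fast counterparts were not called either, with a log2FC of -0.47 (SE 0.40) for ATP2A1 and -0.45 (SE 0.20, adjusted p = 0.136 by edgeR) for CASQ1. The log2 ratio of CASQ2 to CASQ1 was higher in the distal extensors by 2.42, and the two-sided exact permutation test within limbs gave p = 0.0222, or 0.0857 after adjustment over the 6 ratio tests. The difference was 1.42 (exact permutation p = 0.0778) without the extensor digitorum lateralis and 1.70 (exact permutation p = 0.0762) without the extensor digitorum communis. The log2 ratio of ATP2A2 to ATP2A1 differed by 0.40 (exact permutation p = 0.517, adjusted p = 0.621). It turned to -0.35 without the extensor digitorum communis and was 1.15 (exact permutation p = 0.0286, adjusted p = 0.0571) without the extensor carpi radialis.

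Whether the distal against proximal difference itself differed between the limbs was tested as fore minus hind. For CASQ2 it was -2.51 log2 units (SE 1.15), with an adjusted p of 1.0 by edgeR and an unadjusted p of 0.0430. Of the 2 distal hindlimb muscles behind this value, the extensor digitorum lateralis held 97.7 CPM and the extensor digitorum longus 7.61 CPM, which lies within the proximal hindlimb range of 1.92 to 8.59 CPM. For ATP2A2 the fore minus hind difference was -0.47 (SE 0.73). This interaction called 0 of 14770 genes (0%) by edgeR, with 369 at an unadjusted p below 0.05.

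Between the girdle and neck muscles and the proximal forelimb, the slow genes leaned to the girdle and neck without being called. CASQ2 was 5.55, 20.5, 24.9 and 29.5 CPM in the girdle and neck and 2.42, 5.26, 6.2 and 6.70 CPM in the proximal forelimb. Only the pectoralis major lay inside the forelimb range. The log2FC was 1.96 (SE 0.69, adjusted p = 0.512 by edgeR). ATP2A2 was 1023, 1436, 2302 and 3192 CPM against 633, 855, 898 and 1454 CPM, with an overlap through the infraspinatus and a log2FC of 1.05 (SE 0.44, adjusted p = 0.523 by edgeR). ATP2A1 differed in the opposite direction, with a log2FC of -1.57 (SE 0.47, adjusted p = 0.489 by edgeR), and CASQ1 by -0.37 (SE 0.23). No gene was called by edgeR in this comparison (0% of 14770), while 1343 had an unadjusted p below 0.05 and DESeq2 called 16.

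The pump ratio did not overlap between these groups, although its test did not pass after adjustment. The log2 ratio of ATP2A2 to ATP2A1 lay between -1.02 and 2.30 in the girdle and neck and between -2.33 and -1.26 in the proximal forelimb. The means differed by 2.67, with a two-sided exact permutation p of 0.0286, the smallest that 4 muscles against 4 allow, and an adjusted p of 0.0857 over the 6 ratio tests. When single muscles were left out, this difference ran from 2.16 (without the trapezius) to 3.27 (without the pectoralis major). The log2 ratio of CASQ2 to CASQ1 differed by 2.15 (exact permutation p = 0.0571, adjusted p = 0.114), with ranges of -6.30 to -3.70 and -7.72 to -6.00.

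The proximal forelimb and the proximal hindlimb were compared as parts of the front and the rear of the body, and neither gene was called. The girdle and neck and the distal muscles were left out, among them the trapezius and the rhomboideus, the highest for ATP2A2. The comparison thus covers only part of the front and the rear. The study lists ATP2A2 among the genes higher in its group A, a cluster of muscles that it places mostly in the anterior. CASQ2 was 2.42 to 6.70 CPM in the forelimb muscles and 1.92, 2.36, 3.06, 3.49 and 8.59 CPM in the hindlimb, with a log2FC of 0.41 (SE 0.65, adjusted p = 0.821 by edgeR). ATP2A2 was 633 to 1454 CPM in the forelimb and 307, 504, 614, 1098 and 1119 CPM in the hindlimb, with a log2FC of 0.40 (SE 0.41, adjusted p = 0.710 by edgeR). The ranges overlapped for both. When single muscles were left out, the log2FC ran from 0.24 (without the gluteus superficialis) to 0.94 (without the caudal biceps femoris) for CASQ2 and from 0.13 (without the infraspinatus) to 0.61 (without the caudal biceps femoris) for ATP2A2, and neither gene was called. In this comparison 2 genes (0.0135%) were called by edgeR and 99 by DESeq2. The log2 ratios to the fast counterparts differed by 0.60 for CASQ2 (exact permutation p = 0.357) and 0.18 for ATP2A2 (exact permutation p = 0.778). With single muscles left out, the first ran from 0.35 (without the biceps brachii) to 1.04 (without the caudal biceps femoris). The second turned to -0.16 without the vertebral biceps femoris, to -0.033 without the biceps brachii and to -0.027 by medians.

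**Figure D4:**
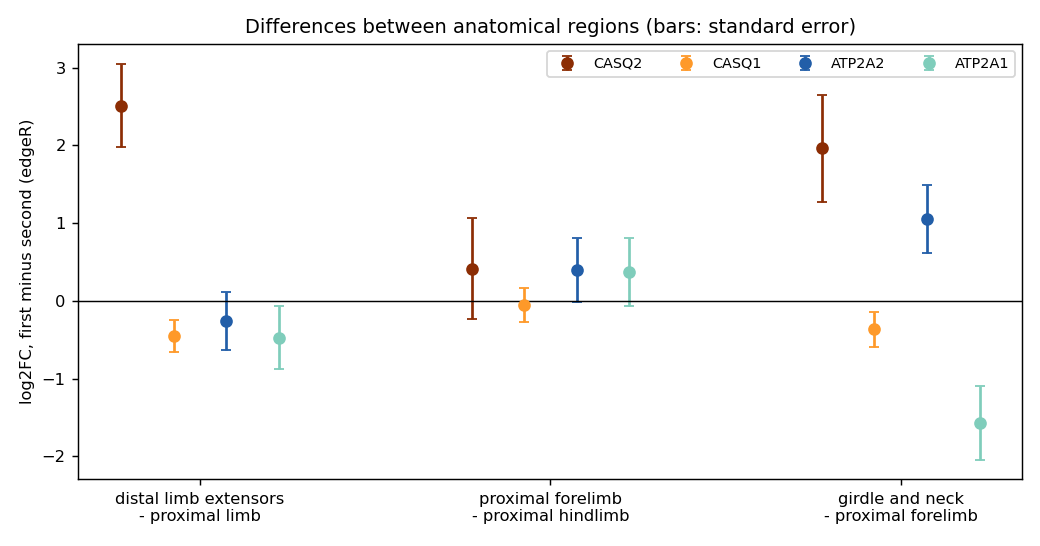
Differences between body regions for the 2 slow genes and their fast counterparts, as log2FC (first region minus second) from edgeR with bars of 1 standard error. Only CASQ2 in the distal limb extensors against the proximal limb (2.51) was called; the girdle and neck differences of CASQ2 (1.96), ATP2A2 (1.05) and ATP2A1 (-1.57) were not.

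Besides the 2 slow genes and their fast counterparts, 16 genes of the slow and fast twitch lists of the heat map were matched through the counts of 5 muscles each. The study drew these fibre type lists from earlier literature. In the distal extensors against the proximal muscles none of the 8 other slow genes was called, where 10.9% of all genes tested were. At that share a count of none among 8 genes says little. All 8 had a log2FC above 0, with a median of 0.37 against -0.04 over all genes tested. The largest was 1.51 (SE 0.67) for MYOZ2, a Z-disc protein of slow fibres. Of the 10 fast genes, ATP2A1 and CASQ1 included, 2 were called, both lower, against 5.12% of all genes called lower. They were ACTN3, the alpha-actinin of fast fibres, with a log2FC of -1.71 (SE 0.47, adjusted p = 0.0214 by edgeR), and FHL3, a LIM domain protein, with a log2FC of -0.90 (SE 0.22, adjusted p = 0.0123 by edgeR). In the girdle and neck against the proximal forelimb none of the 18 was called, and neither was any other gene (0% of 14770). The median log2FC there was 0.67 for the slow and -1.05 for the fast genes against -0.02 over all genes tested.

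Across muscles, both calcium handling genes correlated positively with the contractile genes of slow fibres. CASQ2 correlated positively with all 9 other genes of the slow list including ATP2A2 (r of 0.50 to 0.78, n = 18 muscles), most with MYOZ2 (0.78) and the slow troponin TNNT1 (0.73), and negatively with 9 of 10 fast genes. The lower of these values rest in part on the extensor digitorum lateralis and the rhomboideus, without which r was 0.21 for TNNC1 and 0.31 for each of ACTN2 and FHL1. Of the negative values with fast genes, that of FHL3 weakened most without those muscles, from -0.50 to -0.18. ATP2A2 correlated positively with all 9 others of that list (0.29 to 0.85), least with FHL1 (0.29) and most with MYH7 (0.85). Its r was negative with 8 of 10 fast genes, most with the fast troponins TNNI2 (-0.80) and TNNT3 (-0.76). Without the trapezius and the vertebral biceps femoris, r was 0.18 for FHL1, 0.20 for ACTN2 and 0.37 for MYOM1. Among the fast genes it was then -0.09 for CASQ1 and -0.14 for ACTN3, from -0.28 and -0.30 over all muscles. The exceptions in the fast list were MYOM2, an M-band protein, for both genes (0.56 with CASQ2 and 0.49 with ATP2A2) and FHL3 for ATP2A2 (0.10). Over all genes tested the median r was -0.01 with CASQ2 and -0.02 with ATP2A2. With the mean log2 level of the 8 other slow genes, r was 0.77 for CASQ2 and 0.75 for ATP2A2, and 0.63 and 0.65 without the 2 muscles farthest from the median of each. With the mean of the 10 fast genes, r was -0.79 for CASQ2 and -0.56 for ATP2A2, and -0.73 and -0.38 without those muscles.

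**Figure D5:**
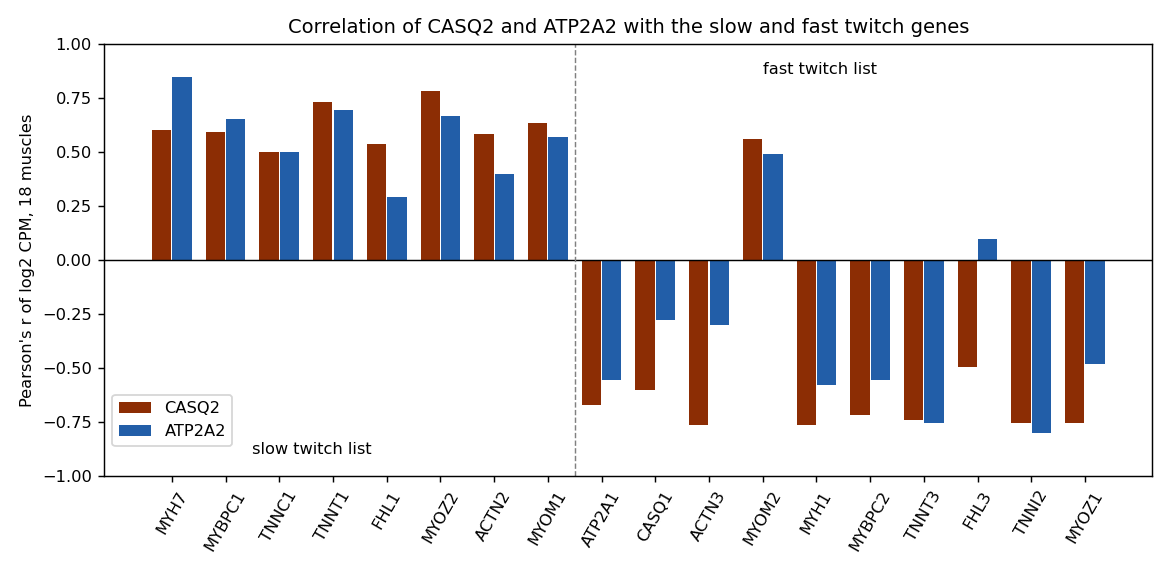
Pearson's r of the log2 CPM of CASQ2 and ATP2A2 with each of the 8 other slow twitch and the 10 fast twitch genes over 18 muscles of 1 horse. All slow genes lie above 0, and MYOM2 is the only fast gene that lies well above 0 for both.

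By TMM CPM, the muscles that led in CASQ2 and in ATP2A2 also differed in which slow genes they led. In the extensor digitorum lateralis 6 of the 8 other slow genes were at their highest of the 18 muscles, namely the slow troponins TNNC1 and TNNT1, FHL1, MYOZ2, the alpha-actinin ACTN2 and the M-band gene MYOM1. MYH7 and MYBPC1, a myosin binding protein of slow fibres, ranked 4th there. With libraries scaled by their totals, only TNNC1 and MYOZ2 of the 8 remained highest in that muscle. MYOZ2 was 894 CPM in that muscle and 370 CPM in the trapezius. The trapezius, highest for ATP2A2, was highest for MYH7 (26284 CPM against 12924 in the extensor digitorum lateralis) and MYBPC1 (7305 against 6534 CPM). It ranked 5th for CASQ2. Under scaling by library totals the rhomboideus was instead the highest for MYH7 and MYBPC1. Among the fast genes, ACTN3 and FHL3 were lowest of the 18 muscles in the extensor digitorum lateralis (47.4 and 95.3 CPM), and MYBPC2, TNNT3 and TNNI2 were lowest in the trapezius.

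Among all genes tested, those most like the members by Pearson's r of log2 CPM over 18 muscles had no name here. For CASQ2 they were ENSECAG00000021186 (0.95) and ENSECAG00000018230 (0.90), and the least alike were ENSECAG00000009524 (-0.91) and ENSECAG00000009992 (-0.87). For ATP2A2 they were ENSECAG00000000907 (0.92) and ENSECAG00000015912 (0.89), and the least alike were ENSECAG00000025054 (-0.87) and ENSECAG00000007592 (-0.83). An r above 0.8 was reached by 37 genes with CASQ2 and 39 with ATP2A2, out of 14769. MYH7 ranked 17th in likeness to ATP2A2 and MYOZ2 55th in likeness to CASQ2.

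The study divided the muscles into groups A and B by clustering the same counts, so their values are given without a test. CASQ2 was 12.0 ± 9.19 CPM (SD, n = 9) in A and 16.7 ± 31.2 CPM (SD, n = 9) in B, which holds both the highest and the lowest muscle. The medians lay the other way, at 8.17 CPM in A and 4.08 CPM in B, and the mean of B rests on the 97.7 CPM of the extensor digitorum lateralis. In the study's subgroups, also clustered from these counts, the CASQ2 mean was 23.5 CPM in A2 (rhomboideus, trapezius and extensor digitorum communis). It was 61.3 CPM in B2 (omohyoideus and extensor digitorum lateralis). The means of A1, A3, B1 and B3 were 5.87, 6.93, 3.28 and 5.85 CPM. The study lists CASQ2 among the genes that differ between A1 and A2, B1 and B2, and B2 and B3. ATP2A2 was 1403 ± 827 CPM (SD, n = 9) in A, which holds the trapezius and the rhomboideus, and 757 ± 365 CPM (SD, n = 9) in B, with overlapping ranges of 633 to 3192 and 307 to 1436 CPM.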

How the data were processed

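RNA of 18 skeletal muscles from 1 horse was sequenced in paired reads after removal of ribosomal RNA. Per the paper's methods, reads were trimmed with NGSQCToolkit, aligned with STAR 2.5.2b in 2 passes to EquCab2 and counted per Ensembl gene. The authors deposited whole-number counts without normalization for 25239 genes, and every column belonged to a mapped muscle. The members and lists were chosen with earlier results of these data known. CASQ2 and ATP2A2 were identified by equality with the counts printed in the heat map over 18 muscles, and 16 other genes over 5 muscles. ATP2A1 and CASQ1 were taken by the identifiers given for them. No sequence, coordinate or further gene name of the build used was at hand, and lists of other calcium handling genes and of cell type markers were not used here for that reason.

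R 4.3.3 with edgeR 4.0.16 was used for counts. After filterByExpr and TMM scaling, genes were tested with glmQLFit and glmQLFTest, with 1 coefficient for each of 6 regions over all 18 libraries and Benjamini-Hochberg adjustment over 14770 genes. A gene was called at an adjusted p under 0.05 with a log2FC beyond 0.58 in either direction. Log2 CPM used a prior count of 2. Log2 ratios of reads within a library were compared by two-sided exact permutation tests, adjusted over 6 tests. Correlations are descriptions without a p. Python 3.11.15 with numpy 2.4.6, scipy 1.17.1, pandas 2.3.3 and matplotlib 3.10.9 was used for ratios and figures. Genes named were the members, their fast counterparts, the slow and fast twitch genes of the heat map, and the genes most and least like each member (up to 2 each way). Alternatives were DESeq2 1.42.0, its size factors in edgeR, library totals, no filter on low counts, a fit of the compared regions only, a robust fit, the 3 biceps femoris parts summed, medians of ratios, rank correlation, and leaving out each muscle in turn. Totals of 31395013 to 50508515 counts set the precision, and Poisson intervals ignore duplicate reads.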

Additional observations from a re-analysis of the deposited data

Results flagged for a closer look

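In the 5 proximal hindlimb muscles, CASQ2 was 8.59 CPM in the caudal biceps femoris, the highest of the region, against 3.49 CPM in the next muscle, the semitendinosus. The gap made up 0.766 of the region's range, above Dixon's critical value of 0.71. The check was made on 12 sets of values, and chance marks about 1 in 20 such sets.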

How the results depend on the processing

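No paired analysis was possible because all libraries came from 1 horse, which left no animals to pair by. Of the alternatives other than leaving out a muscle, 73 values counted as the same, 7 moved and 1 reversed. A log2FC or ratio test counted as the same when it kept its direction and its side of the threshold. The numbers of genes called, the spans and the correlation were judged by how close they stayed to the main value. Scaling by library totals lowered the genes called in the distal against proximal comparison to 818 and the spans of CASQ2 and ATP2A2 to 40.9-fold and 9.19-fold. DESeq2 called 99 genes between proximal forelimb and hindlimb and 16 between girdle and neck and proximal forelimb, and a fit of only the regions compared called 10 and 1. By medians, the log2 ratio of ATP2A2 to ATP2A1 between proximal forelimb and hindlimb turned to -0.027. When single muscles were left out, the CASQ2 log2FC of the distal extensors ran from 1.12 (without the extensor digitorum lateralis) to 2.96, and the genes called there from 550 (without the same muscle) to 2037. The genes called ran from 2 to 24 (without the caudal biceps femoris) between proximal limbs and from 0 to 3 (without the pectoralis major) for the girdle and neck. The log2 ratio of ATP2A2 to ATP2A1 ran from -0.35 (without the extensor digitorum communis) to 1.15 for distal against proximal, and from -0.16 (without the vertebral biceps femoris) to 0.44 between proximal limbs, where it was -0.033 without the biceps brachii. The span of CASQ2 ran from 15.3 to 50.8, that of ATP2A2 from 7.49 to 10.4, and the correlation of the members from 0.48 (without the rhomboideus) to 0.77. The cause of these changes was not tested. Counting error limits the order of muscles below 10 CPM of CASQ2, and 1 library per muscle limits every comparison.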
